A study of Mus musculus with 18 samples.

Results

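These measurements concern the first hours after an activator was switched on in mouse embryonic fibroblasts. The activator line carried a doxycycline-inducible dCas9-Activator, a Cas9 that no longer cuts DNA joined to an activation domain (VPR in the library names). The cells were harvested either without doxycycline or after 6 h with 10 ng/ml doxycycline, with 3 libraries in each group, so that 6 of the 18 libraries of the series were compared. All lines of the series are MEF cultures grown in hygromycin, with a dCas9 fusion named for the genotype, and no wild-type cells were among the samples. The repressor line carried dCas9-repressor and had 3 uninduced libraries and 3 libraries induced with 100 ng/ml doxycycline for 24 h. It was not compared here, but its libraries were part of the fit of all 18, of the count filter and of ranges given for other lines. The control line carried dCas9-control and had 3 uninduced libraries and 3 libraries induced with 10 ng/ml doxycycline for 24 h. Because the control line was induced for 24 h and the activator line for 6 h, effector and time cannot be told apart in any comparison between these lines. Whether each line was 1 clone, and whether the numbered libraries came from separate cultures, is not given in the sources used here. The p-values therefore cover the spread between libraries of a group, which may be only technical.

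Every RNA in a cell is the balance of its synthesis and its decay. RNAs that decay quickly, among them the mRNAs of many transcription factors, growth factors and feedback inhibitors, can fall within hours, whereas mRNAs of ribosomal proteins, the proteasome and the respiratory chain, and small RNAs held in ribonucleoproteins such as 7SK and 7SL, persist for much longer. Many short-lived mRNAs carry AU-rich elements in the 3′ UTR, bound by decay factors of the ZFP36 family. The short-lived and stable groups below were drawn up from such general knowledge, not from half-lives measured in these cells. They were chosen with earlier results of these data known, so their counts are descriptions and not independent support.

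As an example of the element, the following windows of 27 bases show 1 AU-rich copy (in capitals) with 10 bases on each side, 5′ to 3′ on the transcript strand, for 3 of the short-lived genes with the largest falls among those with at least 2 copies. They are shown because the motif TATTTAT, searched on the sense strand with overlapping copies counted, is the sequence feature set against the changes further on. Tnfaip3, a short-lived gene with a larger fall than these, was left out of the choice by name. On build mm10 the windows lie on the minus strand at chr12:80108423-80108449 for Zfp36l1 and at chr17:84184915-84184941 for Zfp36l2, and on the plus strand at chr13:110400735-110400761 for Plk2.
Zfp36l1: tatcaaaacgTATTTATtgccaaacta
Plk2: ataaacttttTATTTATtacagcccca
Zfp36l2: ctatttaactTATTTATtatcttgtga

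Each of the 3 lies in a 3′ UTR exon of a protein-coding transcript in the GENCODE M21 annotation. The motif was present in 43 of 78 3′ UTRs of the short-lived list (55.1%) and in 3377 of 12148 3′ UTRs of all protein-coding genes tested (27.8%). The list was drawn from general knowledge of such mRNAs, with earlier results of these data known, and the shares are not matched for 3′ UTR length. Their difference is a description only.

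The 6 activator libraries held between 16006476 and 25262912 counts, and 22641 to 23420 genes were detected with 1 count or more in the induced libraries against 20201 to 21331 in the uninduced ones. A gene is called higher or lower, or is said to have risen or fallen, when its adjusted p is below 0.05 by edgeR (quasi-likelihood F test, p-values adjusted by Benjamini and Hochberg's method over 16216 genes). Levels are TMM-scaled CPM values (counts relative to a common library size), and changes are log2 fold changes, induced minus uninduced, with their standard error. Of all genes tested 75.3% were called, 38.2% higher and 37.2% lower, 9.58% were called and at least 2-fold higher, and 11.9% were called and at least 2-fold lower. A share of a list near these values is therefore no result about the list. Of the 16216 genes, 978 passed the count filter only through the induced activator libraries, and 935 of these were called higher. A rise of such a gene was fixed by the filter and supports nothing. Without them 34.5% of 15238 genes were higher and 39.6% lower, with a median of −0.05. Below, such members are called induced-only. The induced and uninduced libraries did not overlap for 76.3% of the genes.

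No RNA of known amount was added, so every value is relative to a reference, and the reference set the direction of small changes. The median log2 change of all genes was 0.004 with TMM, 0.05 with RLE, 0.11 with upper-quartile factors and −0.22 with total counts. It was −0.54 when ribosomal protein mRNAs were held constant, −0.65 with 7SK, 7SL, RMRP and RPPH1 RNAs held constant, and −0.73 with the mitochondrially encoded mRNAs held constant. Of the genes called, 50.6% were higher with TMM, 58.0% with upper-quartile factors, 32.8% with total counts, and 12.7%, 10.8% and 9.78% with the last 3 references. These last 3 are called the reference-RNA scalings below. Rises smaller than these shifts can therefore turn into falls, and the sentences on lists say where a median changed sign. The medians of the short-lived list and of the union of transcription factors were below 0 under each scaling.

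Most of the short-lived mRNAs fell. Of 78 tested genes of the short-lived list (79 in the table), 59 fell, 36 of them at least 2-fold, 12 rose and 7 were not called, and the list's median was −0.85. Myc (ENSMUSG00000022346.14, chromosome 15, 61985391 to 61990374), the growth-promoting bHLH factor, went from 119, 125 and 122 CPM to 22.5, 30.2 and 24.9 CPM. The 3 induced libraries all lay far below the 3 uninduced ones, a log2 change of −2.25 ± 0.078 (adjusted p = 1.53e-13). Tnfaip3 (ENSMUSG00000019850.11, chromosome 10, 19000910 to 19015657), which encodes the NF-kB inhibitor A20, went from 50.3, 55.1 and 53.01 CPM to 12.2, 12.3 and 12.3 CPM. Its change was −2.11 ± 0.058 (adjusted p = 1.34e-49), with induced libraries that hardly differed among themselves.

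Genes of the AU-rich element binding decay factors fell too. Zfp36l1 went from 94.3, 97.97 and 99.3 CPM to 23.6, 22.6 and 29.1 CPM (−1.94 ± 0.049) and Zfp36l2 from 259.9, 277 and 272 CPM to 76.1, 72.2 and 76.1 CPM (−1.85 ± 0.036). The kinase gene Plk2, named here for its sequence above, fell as well (−1.89). Of the 12 members that rose, 3 were under 1 CPM in the uninduced cells. Arc, the neuronal cytoskeletal immediate early gene, went from 0.728, 0.909 and 0.972 CPM to 6.16, 5.40 and 5.93 CPM (2.77 ± 0.20), and Fos, an AP-1 subunit, from 1.15, 2.03 and 2.25 CPM to 5.002, 5.47 and 5.31 CPM (1.59 ± 0.18). Neither gene's groups overlapped. Egr1, another immediate early factor, was the exception at a high level, as described with its family.

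Feedback inhibitors of signalling, which the pathways they restrain switch on, divided into 33 lower, 7 higher and 5 not called of 45 (median −0.45). Dusp4, a nuclear MAP kinase phosphatase, went from 136, 141 and 136 CPM to 34.8, 33.7 and 36.6 CPM (−1.97 ± 0.041), and the pseudokinase gene Trib2 fell by a like amount (−1.83). Dusp8, another MAP kinase phosphatase, rose from 12.9, 13.3 and 12.5 CPM to 31.1, 31.4 and 31.7 CPM (1.28 ± 0.065). Its groups did not overlap either, so phosphatases of 1 family moved in both directions.

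**Figure D1:**
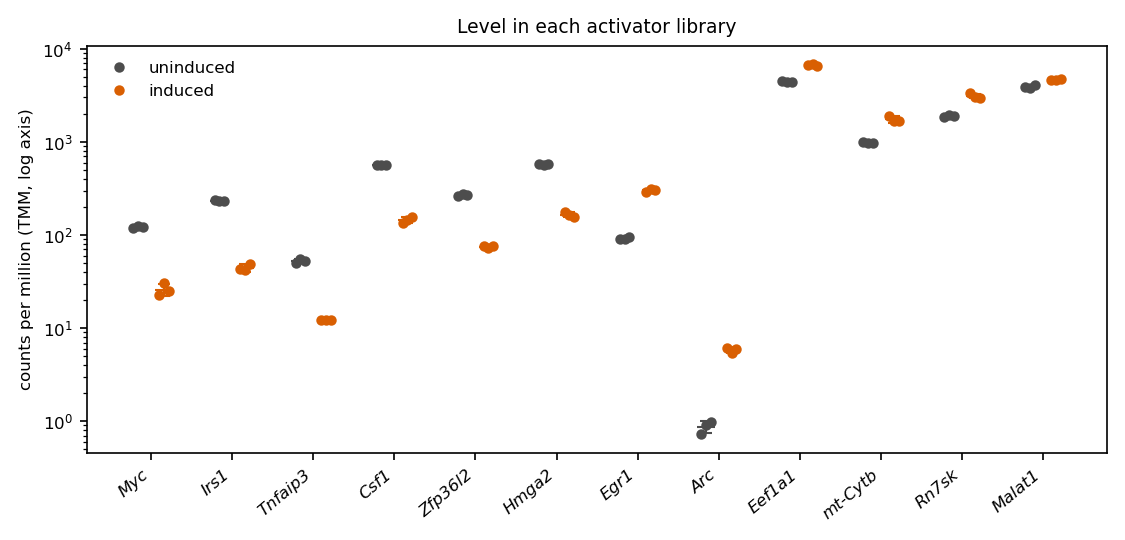
Level of 12 genes in each of the 3 uninduced (grey) and 3 induced (orange) activator libraries, in TMM-scaled CPM on a log axis; points are libraries, and the horizontal mark with its bar is the mean ± SD of 3 libraries. Myc fell to between 22.5 and 30.2 CPM and Egr1 rose to between 289 and 314 CPM, and for each of the 12 genes the groups do not overlap.

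Among ligands, 30 of 49 tested secreted growth factors and morphogens fell, 19 of them at least 2-fold, and 9 rose, 2 of these induced-only (median −0.73). Pdgfb, a platelet-derived growth factor chain, went from 28.8, 30.4 and 29.03 CPM to 6.21, 6.001 and 8.12 CPM (−2.10 ± 0.083). Cytokines and chemokines were fewer and mixed, with 8 lower, 5 higher and 9 not called of 22 (median −0.10, and 0.00 with upper-quartile factors). Csf1 (ENSMUSG00000014599.10, chromosome 3, 107741048 to 107760469), the macrophage colony-stimulating factor, fell from 571, 569 and 566 CPM to 133.9, 144 and 156 CPM (−1.97 ± 0.032, adjusted p = 7.84e-55). In that mixed list Csf3, the granulocyte colony-stimulating factor, had a change of −2.59, while Tnfsf13b, the B-cell survival factor BAFF, rose from 1.11, 0.909 and 1.03 CPM to 15.2, 14.9 and 13.8 CPM (3.83 ± 0.14). The Notch ligand gene Dll1 was induced-only, with 8 counts over the uninduced and 286 over the induced libraries. Its level went from 0, 0.124 and 0.304 CPM to 6.32, 5.001 and 4.91 CPM, which is given as a description.

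Most members of both lists of signalling receptors fell. Of 35 tested receptor tyrosine kinases, 22 fell and 8 rose, 2 of these induced-only (median −0.34), led by the ephrin receptor genes Ephb3 (−1.70) and Epha4 (−1.60). Of 30 receptors of the TGF-beta, BMP, Wnt, Notch and Hedgehog pathways, 19 fell and 5 rose (median −0.58). The Wnt receptor gene Fzd2 went from 78.2, 82.4 and 77.1 CPM to 25.5, 24.4 and 29.5 CPM (−1.57 ± 0.047). Gas1, a Hedgehog co-receptor, fell from 58.6, 57.5 and 59.2 CPM to 19.1, 17.7 and 27.9 CPM (−1.41 ± 0.10), with induced replicate 3 above the other two. Notch3 went the other way, from 3.33, 3.06 and 2.73 CPM to 21, 21.7 and 18.9 CPM (2.73 ± 0.11), and its 6 values did not overlap. Irs1 (ENSMUSG00000055980.2, chromosome 1, 82233101 to 82291416), the adaptor that couples insulin and IGF receptors to PI3 kinase, had the largest fall of any protein-coding gene of at least 50 CPM, from 239, 231 and 231 CPM to 42.6, 41.6 and 49.3 CPM (−2.39 ± 0.037, adjusted p = 6.93e-67).

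Adhesion receptors changed in both directions. Of 29 tested integrins and cadherins, 15 rose, 8 fell and 6 were not called, but 4 of the 15 were induced-only. Without these 4 genes 11 of 25 were higher and 8 lower (44.0% and 32.0%), near the shares of all genes, and the median went from 0.07 to −0.10. Among those already present, the collagen-binding integrin genes Itga1 (from 5.09, 4.22 and 5.10 CPM to 16, 16.7 and 17.4 CPM, 1.80) and Itga10 (from 1.49, 1.53 and 1.52 CPM to 7.42, 7.74 and 6.08 CPM, 2.21) rose, and Itgb8 fell (−1.23). With all 29 members the median was below 0 under total counts, with and without 2 ribosomal RNA-like gene models, and under the reference-RNA scalings.

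Transcription factor genes fell more often than they rose. The union of the family lists, without the genes named Zfp, had 735 genes in the table, of which 474 were tested, 15 of them only because of their induced libraries. Of the 474, 307 were lower, 82 were higher and 85 were not called, and the median was −0.44. Among the 375 factors that already had at least 5 CPM in the uninduced cells, 277 were lower (89 at least 2-fold), 48 were higher and 50 were not called, with a median of −0.53. Among all 9630 protein-coding genes at that level 42.5% were lower and 40.2% higher, with a median of −0.02. Of the 82 that rose, 26 were under 1 CPM before induction. The factors' share of all counts went from 2.34% ± 0.03 to 1.55% ± 0.05 (SD, n = 3 libraries each), and that of the short-lived list from 0.466% ± 0.004 to 0.236% ± 0.008. For either share an exact two-sided permutation test gave p = 0.1, the smallest possible with 3 against 3.

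In several families few or no members rose. None of 16 tested KLF and SP factors, zinc finger proteins that bind GC-rich promoters, was called higher and 13 fell (median −1.11). Klf9 went from 20.1, 20.01 and 19.5 CPM to 5.61, 6.20 and 7.05 CPM (−1.66 ± 0.087), and Sp8 had a change of −1.99. Of 25 forkhead factors 19 fell and 1 rose (median −0.68), with Foxs1 at −2.51 and Foxf2 at −1.73. Of 19 tested Hox cluster factors, which hold positional identity in fibroblasts, 16 fell and 1 rose (median −0.74). Hoxa3 went from 9.12, 8.89 and 9.84 CPM to 3.57, 2.73 and 3.68 CPM (−1.45 ± 0.12) and Hoxb4 from 12.7, 11.8 and 11.7 CPM to 5.72, 5.67 and 5.88 CPM (−1.07 ± 0.10). Homeobox factors outside the clusters gave 44 lower, 7 higher and 11 not called of 62 (median −0.67), 2 of the 7 being induced-only. The TGF-beta signalling repressor gene Tgif1 (from 48.4, 45.1 and 47.4 CPM to 10.4, 9.40 and 11.3 CPM, −2.17) had the largest fall of that list. C/EBP, PAR bZIP and clock factors gave 16 lower and 1 higher of 22 (median −0.83), among them Nr1d1, the clock repressor REV-ERB alpha (−2.07), and Nfil3 (−1.54).

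Most nuclear receptor and zinc finger genes fell. Nuclear receptors gave 17 lower and 4 higher of 26, 1 of the 4 induced-only (median −0.52). Nr2f2 (ENSMUSG00000030551.14, chromosome 7, 70351944 to 70366735), the orphan receptor COUP-TFII of mesenchymal cells, went from 113, 109 and 111 CPM to 21.1, 22.4 and 25.6 CPM (−2.26 ± 0.045, adjusted p = 2.29e-59). The mixed list of GLI, SNAI, ZBTB, PRDM and other named zinc finger factors gave 56 lower and 13 higher of 79, 2 of these induced-only (median −0.51). Osr1, an odd-skipped factor of embryonic mesoderm, went from 27.97, 27.7 and 25.4 CPM to 4.45, 6.33 and 5.67 CPM (−2.32 ± 0.085), and Snai2, known for its role in mesenchymal transition, from 20.9, 19.2 and 21.8 CPM to 6.21, 4.93 and 6.95 CPM (−1.75 ± 0.088). The 339 tested Zfp genes, many of them repressors of the KRAB family, gave 206 lower and 61 higher, 6 of these induced-only (median −0.39). That list was made by name and is not limited to transcription factors. Its largest fall was that of Zfp36l1, the decay factor gene already counted in the short-lived list.

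Factors of signalling pathways and of cell lineages also fell more often than they rose. SMAD, STAT, IRF, NFAT and REL factors gave 17 lower, 5 higher and 5 not called of 27 (median −0.21). Smad3, a TGF-beta effector, went from 88.3, 84.9 and 88.8 CPM to 24.2, 27.1 and 26.2 CPM (−1.76 ± 0.047), and the interferon regulatory factor gene Irf1 fell as well (−1.25). Relb, the partner of NF-kB p52, rose from 19.6, 20.9 and 23.2 CPM to 46.01, 49.01 and 42.3 CPM (1.11 ± 0.058). TEAD, SRF and MEF2 factors gave 8 lower and 3 higher, 1 of these induced-only, of 14 (median −0.52; Tead4 −1.31, Mef2d −0.93), ETS factors 10 lower and 5 higher, 2 of these induced-only, of 17 (Erf −1.28, Elf4 −0.90), and SOX and TCF/LEF factors 8 lower and 3 higher, 2 of these induced-only, of 12 (Sox4 −1.93, Sox9 −1.47). Runx2, the osteoblast factor, went from 103, 107 and 108 CPM to 31.6, 29.01 and 33.8 CPM (−1.74 ± 0.042). It was 1 of 18 members of the GATA, RUNX, T-box, NFI, AP-2 and EBF list that fell, and the remaining 7 of the 25 rose, 1 of them induced-only.

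The bHLH and AP-1 lists held more falls than rises. Of 45 bHLH factors 23 fell and 14 rose (median −0.32), and 4 of the 14 were induced-only, which leaves 10 higher and 23 lower of 41. The aryl hydrocarbon receptor gene Ahr (from 135.4, 138 and 134.3 CPM to 33.8, 31.7 and 43.03 CPM, −1.90) and the repressor gene Tfap4 (−1.65) were among those that fell. Tal1, a factor of blood stem cells and an induced-only member, had 3 counts over the uninduced and 336 counts over the induced libraries, where it was between 5.72 and 6.93 CPM. Of 32 AP-1 and ATF/CREB factors 16 fell and 10 rose (median −0.11), with Fosl2 (from 188, 196 and 186 CPM to 53.98, 55.4 and 59.4 CPM, −1.75) and Fosl1 (−1.68) the largest falls. In the last list, of E2F, p53, RFX, HSF and other factors, 27 of 52 fell and 7 rose (median −0.16). Its largest fall was that of Hmga2 (ENSMUSG00000056758.14, chromosome 10, 120361275 to 120476469), the chromatin architectural protein, from 579, 570.5 and 575 CPM to 175, 164 and 155 CPM (−1.81 ± 0.030).

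**Figure D2:**
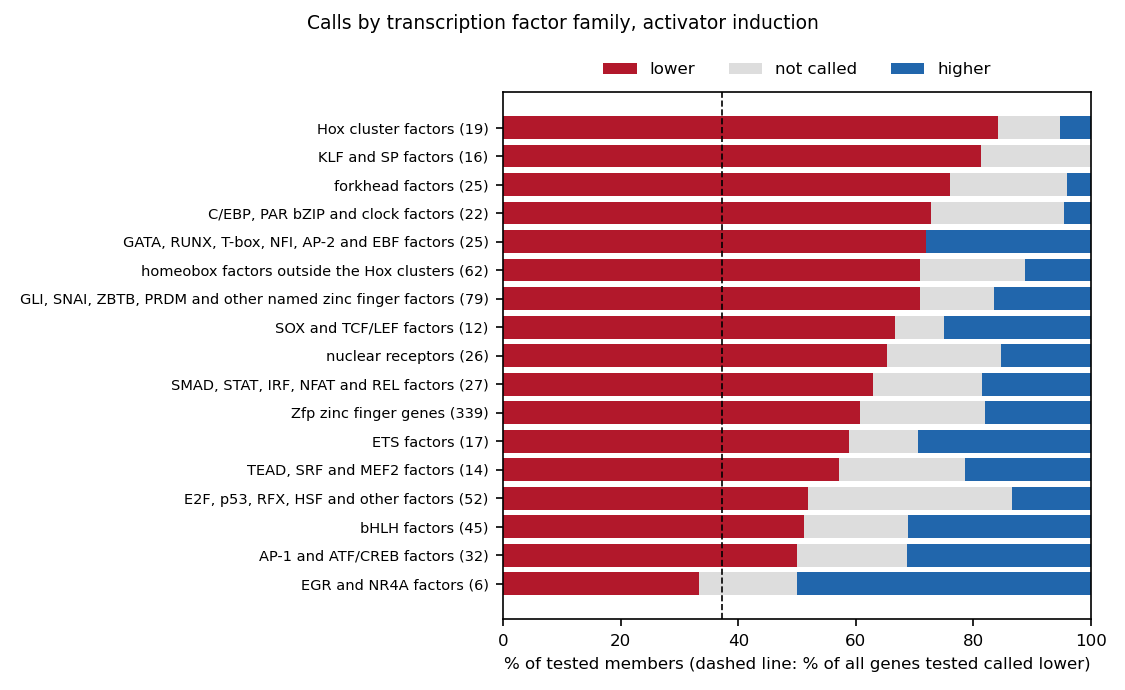
Share of the tested members of 17 transcription factor lists that were called lower (red), not called (grey) or called higher (blue) in the activator line; the number of members tested is in parentheses and the dashed line is the 37.2% of all genes called lower. The red bar of EGR and NR4A factors (2 of 6) ends short of the line, and those of the other lists pass it. Without the EGR and NR4A member tested only through its induced libraries, 2 of 5 were lower, a share above the line. That bar therefore ends short only because this member is counted. The KLF and SP list has no blue bar. The Zfp list was made by name and also holds Zfp36l1, a decay factor gene of the short-lived list.

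Few expressed transcription factors rose. The EGR and NR4A list, immediate early factors, had 3 higher, 2 lower and 1 not called of 6 (median 0.32; below 0 under the reference-RNA scalings). Nr4a3, 1 of the 3, was induced-only, which leaves 2 higher and 2 lower of 5, and total counts gave 1 higher and 2 lower. Egr1 (ENSMUSG00000038418.7, chromosome 18, 34859823 to 34864984) went from 89.99, 89.5 and 94.2 CPM to 289, 314 and 303 CPM (1.73 ± 0.032, adjusted p = 8.62e-62), with no overlap. It was 1 of 3 among 4210 protein-coding genes of at least 50 CPM that rose at least 2-fold. The others were Zfp507 (from 59.1, 54.2 and 56.9 CPM to 118, 118 and 119 CPM, 1.06) and AC149090.1 (from 231, 226 and 236 CPM to 1271, 1296 and 1285 CPM, 2.48), a model on an unplaced scaffold whose reads may belong to copies elsewhere; both were singled out after their values were seen. Glis1, a GLI-related factor, went from 4.06, 4.26 and 5.34 CPM to 14.1, 14.5 and 13.3 CPM (1.64 ± 0.11), and Zbtb24, a zinc finger gene linked to methylation of pericentromeric repeats, from 11.6, 12.7 and 12.6 CPM to 31.2, 35.7 and 33.9 CPM (1.45 ± 0.071). Zbtb32, a repressor known from lymphocytes, rose from under 1 CPM in each library to between 5.54 and 6.95 CPM.

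The bulk of well-expressed genes moved within narrow bounds in both directions. Of the 4210 protein-coding genes of at least 50 CPM, 229 fell at least 2-fold, 6 at least 4-fold and none at least 8-fold. The 5th percentile of their changes was −1.05 and the 95th was 0.56. Besides Irs1, Nr2f2, Myc and Tnfaip3, the largest falls were those of Bahcc1, a chromatin reader gene (from 143, 143 and 140.0 CPM to 28.03, 28.1 and 32.5 CPM, −2.26), the protocadherin gene Pcdh18 (−2.13), Irf2bp2, a corepressor (−1.99), and Csf1. The 8 largest rises among protein-coding genes of at least 50 CPM after induction included 6 predicted gene models whose reads may be shared between copies. The other two were the collagen gene Col20a1, which went from 2.57, 2.52 and 3.10 CPM to 98.1, 102 and 90.5 CPM (5.17 ± 0.079), and Cdk5r1, which encodes the CDK5 activator p35 and went from 6.82, 6.99 and 6.44 CPM to 59.2, 58.95 and 50.3 CPM (3.04 ± 0.075).

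The lists of the transcription machinery had small medians, which went in both directions. Of 13 RNA polymerase II subunits 9 rose and 2 fell (median 0.22), and of 40 general initiation factors 24 rose and 9 fell (median 0.18), with Taf6, a TFIID subunit, at 0.76. Of 32 Mediator subunits 15 rose and 8 fell (median 0.09). These 3 medians were below 0 under total counts and under the reference-RNA scalings, and that of Mediator also under total counts without the 2 ribosomal RNA-like models. Med22, a subunit of the Mediator head, was set apart from the rest of its complex, from 108, 109.5 and 105 CPM to 35.4, 35.7 and 34.5 CPM (−1.61 ± 0.042). RNA polymerase I and III subunits went the other way, with 13 lower and 1 higher of 18 (median −0.21). Polr1b, the second largest subunit of polymerase I, went from 114, 115 and 114 CPM to 50.3, 51.3 and 47.3 CPM (−1.21 ± 0.037) and Cd3eap, another polymerase I subunit, from 24.1, 27.7 and 25.6 CPM to 11.8, 10.8 and 10.99 CPM (−1.20 ± 0.076).

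Pause release and elongation factors were split, with 19 higher and 14 lower of 41 (median 0.04, and below 0 under total counts, with and without the 2 models, and the reference-RNA scalings). Mepce, the enzyme that caps 7SK RNA, fell from 58.8, 58.6 and 58.2 CPM to 19.5, 20.6 and 21.6 CPM (−1.51 ± 0.052), while 7SK itself did not fall on that scale, as given with the small RNAs. Histone acetyltransferases and coactivators gave 11 lower and 8 higher of 27 (40.7% and 29.6%, the former near the share of all genes), with Ppargc1b (−2.06) and Ncoa6 (−1.04) lower. Histone deacetylases and corepressors gave 19 lower and 11 higher of 40, with the Groucho family gene Tle3 (from 105, 111 and 110.2 CPM to 33.9, 35.1 and 39.1 CPM, −1.59) and Hdac7 (−1.32) lower. Their medians, −0.01 and −0.08, were above 0 with RLE (first list) and upper-quartile factors (both). MLL and SET1 methyltransferase subunits, which methylate histone H3 at active genes, fell more often, with 15 lower and 5 higher of 24 (median −0.26). Setd1b went from 101, 100.3 and 102 CPM to 42.3, 42.9 and 42.3 CPM (−1.25 ± 0.039) and Kmt2d from 555, 569.8 and 570.1 CPM to 263, 262 and 278 CPM (−1.08 ± 0.028). SWI/SNF remodelling subunits gave 11 higher and 9 lower of 25 (44.0% and 36.0%, near the shares of all genes). Their median of 0.07 was below 0 under total counts, with and without the 2 models, and the reference-RNA scalings. The accessory subunit gene Bcl7a had the largest fall (−1.63).

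RNA processing factors leaned upward. Of 52 core spliceosome proteins 41 rose and 9 fell (median 0.34; below 0 under the reference-RNA scalings), Lsm11 of the histone mRNA processing particle being the largest fall (−1.02). Of 20 hnRNP genes 12 rose and 4 fell, with Hnrnpc, which binds uridine tracts in introns, from 248, 240.1 and 239 CPM to 464, 452 and 432 CPM (0.89 ± 0.027). Of 29 SR factors and regulators 18 rose and 7 fell, with the splicing activator gene Tra2b at 0.76 and Srsf5 at −0.57. Cleavage and polyadenylation factors gave 19 higher and 10 lower of 34, with Cstf3, a cleavage stimulation factor, at 0.77 and the Integrator gene Ints5 at −1.62. The medians of these last 3 lists, 0.18, 0.15 and 0.16, were below 0 under total counts and the reference-RNA scalings.

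Decay factors stayed near the shares of all genes, and genes of the microRNA machinery fell more often than they rose. Deadenylation, decapping and exosome factors gave 24 lower and 21 higher of 55 (43.6% and 38.2%, against 37.2% and 38.2% of all genes). Their median was −0.02, above 0 with RLE and upper-quartile factors. Among those lower were Upf3b of nonsense-mediated decay (−1.20) and Tob2, which recruits deadenylases (−0.98). Of 14 tested genes of the microRNA machinery 11 fell and 2 rose (median −0.32). Tnrc6a, the Argonaute partner GW182, went from 198, 199 and 202 CPM to 108, 113 and 116 CPM (−0.83 ± 0.032), and Tarbp2, a Dicer partner, from 40.3, 41.8 and 37.3 CPM to 23.4, 22.7 and 22.99 CPM (−0.80 ± 0.057).

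Stable mRNAs formed the counterpart of the short-lived list. Over the union of the stable lists without matrix genes, 426 of 493 tested genes rose, 23 fell and 44 were not called, and the median was 0.46. That median was −0.09, −0.19 and −0.28 when ribosomal protein mRNAs, the 7SK group or mitochondrial mRNAs were held constant, and the genes called higher then numbered 24, 8 and 6. Measured against the median of all genes under the same scaling, the distance was 0.45 or 0.46 under each of the 8 scalings, since a scaling moves all genes by nearly the same amount. For the short-lived list the same distance was −0.86 under each of them.

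The following groups of the union had medians from 0.35 to 0.55. Of 82 cytosolic ribosomal protein genes 80 rose and 1 fell (median 0.55), and the range between their quartiles was narrow. Rps20 went from 246, 262 and 236 CPM to 400.4, 415 and 362 CPM (0.66 ± 0.043), and Rpl37 had a change of 0.64. Nuclear genes of the respiratory chain gave 74 higher and none lower of 76 (median 0.54; Ndufv2, a complex I subunit, from 67.7, 67.05 and 66.7 CPM to 103, 109 and 112 CPM, 0.69). Proteasome subunits gave 32 higher and 1 lower of 35 (median 0.51; Psmb2 0.67, Psmc4 0.66). V-ATPase and lysosomal genes gave 43 higher, 2 of these induced-only, and 1 lower of 48 (median 0.49), glycolytic enzymes 14 higher of 15 (median 0.45; Gapdh 0.50), CCT chaperonin and prefoldin subunits 13 higher of 14 (median 0.43), and aminoacyl-tRNA synthetases 19 higher of 20 (median 0.35). Each of these medians was below 0 under the reference-RNA scalings.

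In the remaining stable lists most members rose too. Translation initiation and elongation factors gave 37 higher and 5 lower of 52 (median 0.32). Eef1a1, the elongation factor that brings aminoacyl-tRNA to the ribosome, went from 4465, 4441 and 4446 CPM to 6732, 6829 and 6475 CPM (0.59 ± 0.024), while Eif1a fell from 158, 154 and 155 CPM to 70.8, 77.4 and 71.9 CPM (−1.09 ± 0.035). Ferritin, metallothionein and redox genes gave 19 higher and 2 lower of 22 (median 0.39; Sod1 0.67, Ftl1 0.63). Mitochondrial ribosomal proteins gave 51 higher and 9 lower of 77 (median 0.27). Fibroblast collagen and matrix genes gave 14 higher and 4 lower of 19 (median 0.22), and Thbs1, thrombospondin 1, was the largest fall, from 946, 928 and 959.6 CPM to 452, 463 and 413 CPM (−1.09 ± 0.028). These medians too were below 0 under the reference-RNA scalings, and that of the matrix list also under total counts.

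RNA made inside mitochondria, which a separate polymerase transcribes, rose as well. All 13 mitochondrially encoded mRNAs were higher (median 0.67), a list below 0 only when it was itself the reference. The gene for cytochrome b, mt-Cytb, went from 989, 971 and 981 CPM to 1894, 1671 and 1665 CPM (0.83 ± 0.032), and mt-Nd4, a complex I subunit, from 228, 225 and 241 CPM to 394, 418 and 463 CPM (0.88 ± 0.11). The mitochondrial rRNAs, mt-Rnr1 (0.81 ± 0.11) and mt-Rnr2 (1.03 ± 0.18), rose in depleted libraries, where what remains of an rRNA depends on the depletion.

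**Figure D3:**
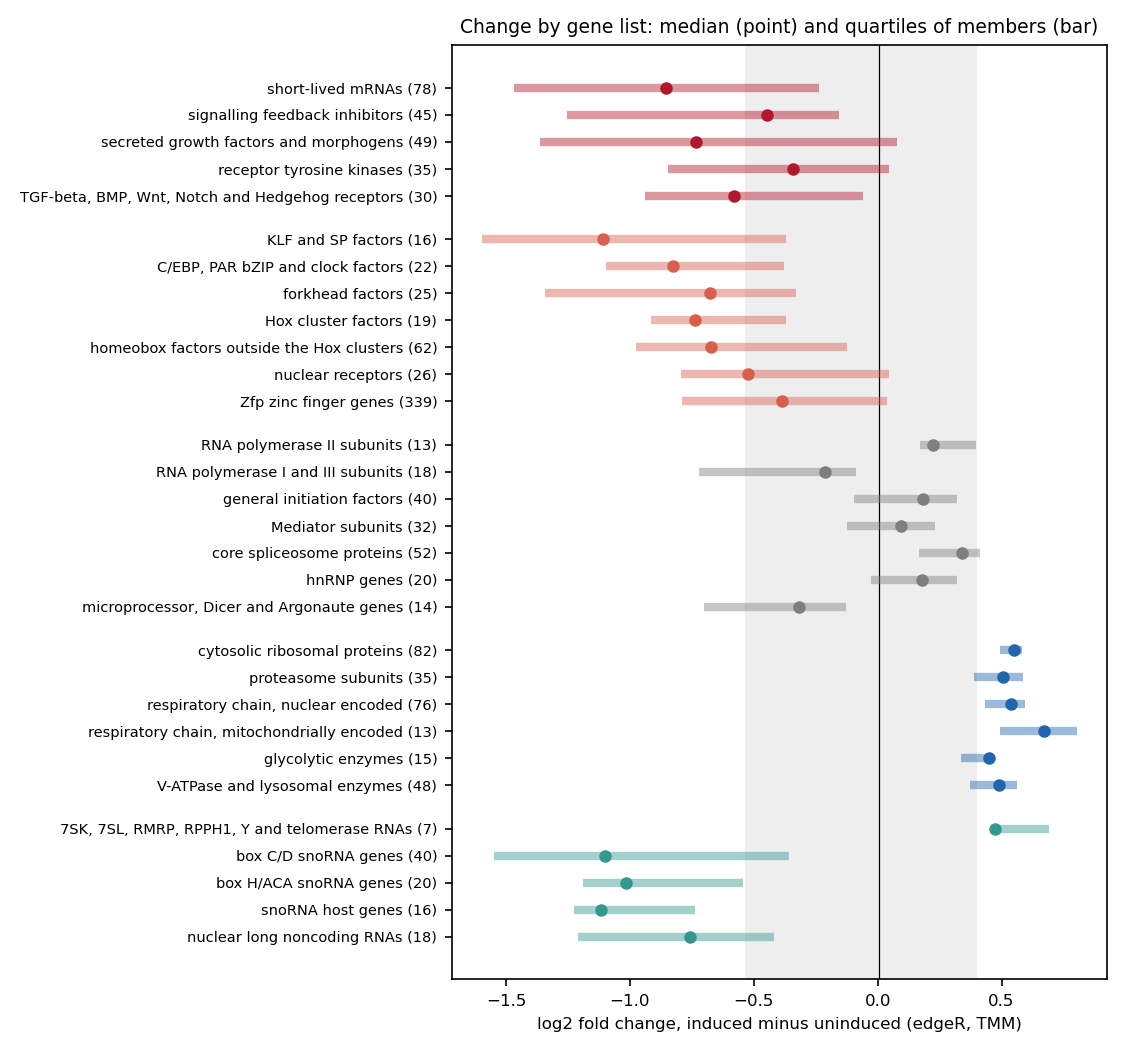
Log2 fold change (induced minus uninduced, TMM) of 30 gene lists, with the median of the tested members as a point and the range between their quartiles as a bar; the number tested is in parentheses, and the grey band and black line give the range between the quartiles and the median of all 16216 genes. The short-lived and factor lists lie to the left (short-lived mRNAs at −0.85), the stable mRNA lists to the right (ribosomal proteins at 0.55), and noncoding RNAs on both sides.

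Small stable RNAs made by RNA polymerase III rose like the stable mRNAs. Rn7sk (ENSMUSG00000065037.1, chromosome 9, 78175303 to 78175633), the scaffold that holds the pause release factor P-TEFb inactive, went from 1867, 1963 and 1878 CPM to 3311, 3043 and 2993 CPM (0.71 ± 0.053, adjusted p = 2.24e-08). Rpph1, the RNA of ribonuclease P, went from 4111, 4549 and 4267 CPM to 5964, 7608 and 7207 CPM (0.68 ± 0.087), and Rmrp, the RNA of ribonuclease MRP, from 1186, 1462 and 1169 CPM to 1883, 1756 and 1568 CPM (0.45 ± 0.14). The call of Rmrp was lost with total counts (0.22, adjusted p = 0.138) and with a replicate block (0.45, adjusted p = 0.0593), besides the reference-RNA scalings. The signal recognition particle genes Rn7s1 (0.47 ± 0.080) and Rn7s2 (0.70 ± 0.11) are near-identical copies, so their separate values are uncertain. Vaultrc5, a vault RNA, was at 2.07 to 2.27 CPM before and 2.40 to 3.68 CPM after induction (0.47 ± 0.18, adjusted p = 0.0157), and its call was lost with total counts (0.25, adjusted p = 0.21) and without induced replicate 1 (0.28, adjusted p = 0.218). Terc, the telomerase RNA and a polymerase II product, did not pass the test (0.09 ± 0.11, adjusted p = 0.433), and its groups overlapped. So 6 of 7 tested members rose on the TMM scale, and their median of 0.47 was below 0 under the reference-RNA scalings.

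Other noncoding RNAs of the nucleus divided by kind. Of 5 tested small Cajal body RNAs, which guide snRNA modification, 4 rose (median 0.59, below 0 under the 7SK group and mitochondrial scalings; Scarna2 from 28.5, 34.1 and 27.9 CPM to 52.3, 47.5 and 43.3 CPM, 0.65). Of 5 tested spliceosomal snRNA genes, whose RNAs are also held in stable particles, 4 fell and none rose (median −0.67, below 0 under each scaling). Of 40 box C/D snoRNA genes 28 fell and 2 rose (median −1.10), and of 20 box H/ACA genes 15 fell and 1 rose (median −1.02). Snord49a went from 5.44, 5.66 and 6.32 CPM to 1.37, 1.33 and 1.38 CPM (−2.07 ± 0.17), and Snora17 from 7.01, 7.77 and 6.62 CPM to 5.55, 4.33 and 4.24 CPM (−0.61 ± 0.12). Their long host transcripts fell too, 15 of 16 with none higher (median −1.12), among them Snhg5 (from 39.04, 43.2 and 40.7 CPM to 13.5, 14.1 and 14.6 CPM, −1.54) and Dancr (−1.94). Most snoRNAs lie within introns, and reads of the unspliced host and of the mature snoRNA are not told apart in a table per gene.

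Long nuclear RNAs gave 15 lower and 2 higher of 18 (median −0.76). The microRNA host genes Mir17hg, precursor of the miR-17-92 cluster (from 29.1, 30.5 and 25.7 CPM to 7.20, 6.74 and 8.59 CPM, −1.92 ± 0.079), and Mir99ahg (−1.85) had the largest falls. Malat1, an abundant RNA of nuclear speckles, rose from 3889, 3829 and 4034 CPM to 4621, 4649 and 4770.0 CPM (0.26 ± 0.026). Its call was lost with total counts (0.03, adjusted p = 0.499), and its change was below 0 under the reference-RNA scalings. By annotated class the lowest medians were those of sense-intronic transcripts (−1.15, 117 of 159 lower), microRNA genes (−1.07, 62 of 119 lower), snoRNAs (−0.91, 99 of 171), unconfirmed transcripts of the TEC class (−0.88, 521 of 840) and snRNA genes (−0.84, 48 of 96). Processed pseudogenes had a median of 0.37, with 40.1% of 1059 higher, near the share of all genes, and 10.1% lower, and their reads may come from the parent genes. Protein-coding genes lay at 0.03.

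Regulators of survival and of protein turnover changed in both directions. Of 17 BCL2 family genes 9 fell and 4 rose (median −0.23), both the protective Bcl2l1, which encodes BCL-XL (from 70.2, 74.5 and 70.3 CPM to 20.3, 21.1 and 24.6 CPM, −1.70 ± 0.050), and the pro-apoptotic Bbc3, which encodes PUMA (from 5.86, 7.32 and 6.62 CPM to 2.03, 2 and 1.99 CPM, −1.71 ± 0.16). Of 109 cullin, F-box and KLHL genes 53 fell (48.6%) and 41 rose (37.6%, the latter near the share of all genes; median −0.16), with the cullin 3 adaptors Klhl21 (from 40.2, 44.7 and 42.02 CPM to 10.8, 11.2 and 11.3 CPM, −1.93) and Kctd11 (−1.80) the largest falls.

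Gene structure separated the changes in part. Over 9630 protein-coding genes of at least 5 CPM, genes with 2 exons (in the 1 transcript per gene with the longest coding sequence) stood lowest, with 249 of 338 lower, 48 higher and a median of −0.59. Single-exon genes followed (108 of 201 lower, median −0.25), then those with 3 or 4 exons (−0.12), and genes with 5 to 8, 9 to 16 and 17 or more exons lay at 0.03, 0.01 and 0.02. Transcription factor and short-lived genes are often of few exons, yet within the same exon class they lay lower than the other genes. With 1 or 2 exons the medians were −1.04 for 62 such genes and −0.37 for 477 others, with 3 to 8 exons −0.67 for 175 and 0.01 for 3464, and with 9 or more exons −0.34 for 183 and 0.02 for 5263. These are descriptions over genes, which are not replicates, and carry no test.

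Genes with longer 3′ UTRs had lower medians over all genes, but not within the factor and short-lived genes. Genes with a 3′ UTR of at most 250 bases had a median of 0.20 (56.2% higher, 26.6% lower), and those above 4000 bases −0.15 (30.1% higher, 52.8% lower). Transcription factor and short-lived genes lay at −0.53, −0.59 and −0.53 with 3′ UTRs of at most 1000, over 1000 and up to 2000, and over 2000 bases, and other genes at 0.10, −0.06 and −0.11. The AU-rich copies shown at the start were compared within classes of 3′ UTR length. The median was 0.02 for 6661 genes with no TATTTAT and −0.23 for 122 genes with 4 or more. Within 3′ UTRs of at most 500 bases it was 0.15 without a copy, 0.10 with 1 and 0.03 with at least 2 (25 genes), and within those of over 500 and up to 1000 bases it was 0.00, 0.01 and −0.25 (77 genes). In that class 19.5% of the genes with at least 2 copies were called at least 2-fold lower, against 7.10% of those without a copy. In the longer classes the medians hardly differed, at −0.08, −0.07 and −0.11 for up to 2000 bases, −0.11, −0.13 and −0.13 for up to 4000 bases, and −0.17, −0.13 and −0.14 above that. The genomic length of the gene, from under 5000 to over 300000 bases, moved the median only between 0.05 and −0.07. Genes with more counts before induction lay higher. The median was −0.13 at 5 to 20 CPM and 0.33 at 500 CPM or more, where 124 of 158 genes rose, though CPM is not corrected for gene length.

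**Figure D4:**
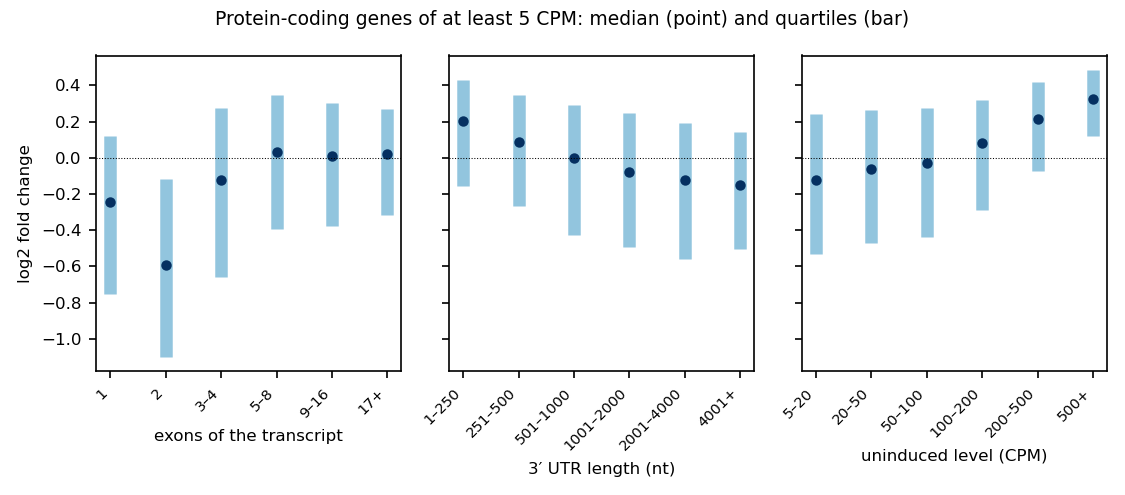
Log2 fold change (TMM) of protein-coding genes of at least 5 CPM by number of exons, length of the 3′ UTR in bases and uninduced level in CPM; points are medians and bars the range between the quartiles. Genes with 2 exons lie lowest (median −0.59), the median falls from 0.20 to −0.15 with 3′ UTR length, and it rises to 0.33 in the highest class of level.

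The activator line was also compared with the control line. The change on induction differed between these lines, by the interaction term of the same fit, in 63.7% of genes (30.8% higher and 33.0% lower in the activator line), against 0.463% of genes called in the control induction itself (0.253% higher and 0.21% lower). Of the 78 short-lived genes 58 had a lower response and 9 a higher one than in the control line, and of the 474 transcription factors 289 and 63. Of the 82 ribosomal protein genes 78 had a higher response and 1 a lower one. The control line's own induction called 1 short-lived gene, 1 ribosomal protein gene and no transcription factor.

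Before induction the activator line already differed from the uninduced control line, with 8.92% of genes higher and 10.5% lower. In that comparison 26 short-lived genes were lower and 10 higher, 108 transcription factors were lower and 31 higher, and 36 ribosomal protein genes were higher and none lower. It shares the uninduced activator libraries with the induction, and what part line or leakage without doxycycline has in it was not tested.

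A pair of gene models known to take up ribosomal RNA-like reads moved with the groups. Gm26917 held 10.9%, 12.1% and 11.3% of all counts in the uninduced and 18.5%, 16.5% and 16.2% in the induced libraries, against 9.277% to 11.99% in the other lines, and Gm42418 went from 1.45% ± 0.12 to 1.95% ± 0.13 (SD, n = 3 each; exact two-sided permutation p = 0.1 for each, the smallest possible). Their part in the results was not tested beyond scaling to total counts without them, under which the median of all genes was −0.11, that of the short-lived list −0.97 and that of the stable mRNAs 0.34.

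The cells carried the markers of their labelled type, with exceptions. Of 15 fibroblast markers 13 had a count in the uninduced libraries and their summed level was 21040 to 21560 CPM, against 20080 to 21520 CPM after induction, and Thy1 was at 0 throughout. Of the 12 tested 6 rose, by at most 0.61 (median 0.23), and 4 fell, with changes from −1.14 to −0.93, 3 of them at least 2-fold. The median of all 12 was 0.19 with TMM and −0.04 with total counts, where 1 was higher and 5 lower. With ribosomal protein mRNAs, the 7SK group or mitochondrial mRNAs held constant it was −0.36, −0.46 and −0.55, and no member was called higher. The sum, near-constant on the scale without TMM factors, does not show these falls. Markers of other cell types were low. The 10 endothelial markers summed to 4.27 to 5.50 CPM before and 24.0 to 29.6 CPM after induction. Pecam1, an induced-only gene, was the largest part of the latter. Its TMM-scaled level went from 0.268, 0.372 and 0.182 CPM to 22.4, 23.3 and 18.3 CPM. All 4 tested members were called higher, 2 of them induced-only, with Tie1, Cldn5 and Emcn at 0 in all 6 libraries. The 10 hepatocyte and kidney tubule markers went from 0.335 to 0.515 CPM to 21.5 to 24.6 CPM with Slc22a6, Fgb, Ttr and Serpina1a at 0, and the 3 tested members were all induced-only. The 10 macrophage markers summed to 7.96 to 9.25 CPM before and 8.999 to 9.84 CPM after induction, while Itgam, Lyz2 and Fcer1g were called higher, Itgam and Lyz2 being induced-only, and Cd14 lower, with Tyrobp and C1qa at 0. The median of the 6 tested, 0.60, was below 0 under the 7SK group and mitochondrial scalings. The 10 epithelial markers stayed between 2.67 and 4.12 CPM in sum, and the 8 pluripotent and 8 erythroid markers were at or under 2.62 CPM. The 8 skeletal muscle markers went from 7.37 to 9.37 CPM to 10.9 to 12.4 CPM, with Myod1 at 0. Of the 5 tested, Actc1, Myh3 and Ttn were called higher, all 3 induced-only, and Tnnt2 lower (−0.69). The 10 neuron markers went from 34.7 to 35.9 CPM to 17.8 to 19.3 CPM, with Rbfox3, Snap25, Nefl, Nefm and Elavl4 at 0. Their only tested member, Tubb3, was called lower (−0.70).

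**Figure D5:**
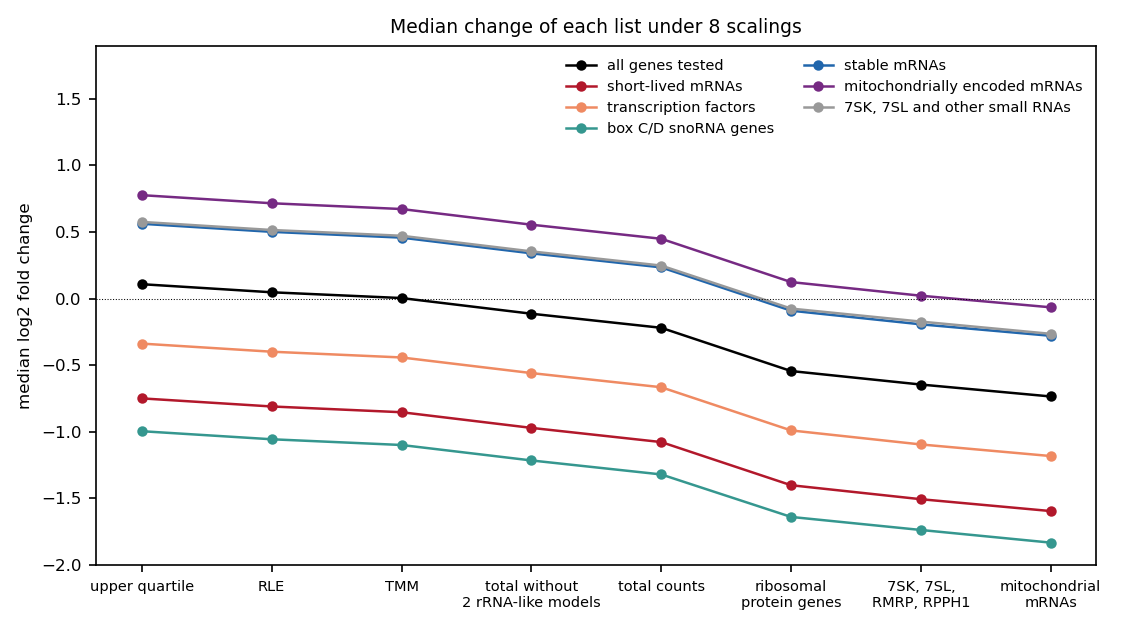
Median log2 fold change of 6 gene lists and of all genes tested (vertical axis) under 8 scalings of the libraries (horizontal axis). All lines shift together, from 0.11 to −0.73 for all genes; short-lived mRNAs, transcription factors and box C/D snoRNA genes stay below 0 throughout, and stable mRNAs cross 0 where a stable RNA is the reference.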

How the data were processed

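The deposited table holds whole-number read counts per gene that the authors made from stranded, rRNA-depleted total RNA libraries read from both ends, per the labels' protocols, on build mm10, per the submitters' processing notes. No aligner, counter or strand setting is given in the sources used here, so genes that overlap, lie antisense or have near-identical copies are uncertain. Of 47937 gene IDs, 47310 matched GENCODE M21, the source of symbols, classes, 1-based coordinates and 3′ UTRs; the rest held 0.042% of the counts.

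All 18 libraries (14928765 to 25262912 counts) were fitted with edgeR 4.0.16 (R 4.3.3; TMM, filterByExpr, robust quasi-likelihood, 1 coefficient per group, 12 residual degrees of freedom), which tested 16216 genes with Benjamini-Hochberg adjustment at 0.05. The common biological coefficient of variation was 0.0246. Alternatives were other scalings, filters, DESeq2 1.42.0, limma-voom (limma 3.58.1), the activator libraries alone, a replicate block and leaving out each activator library. The fit was tested on simulated data.

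The 72 gene lists and the genes described were chosen with earlier results of these data known. For each list the rule named the 2 largest changes in the direction with more calls and 1 in the other, among called members of at least 5 CPM, and it added the 6 largest falls and rises of transcription factors and the 8 largest of protein-coding genes of at least 50 CPM; "largest" in the text is meant within these limits. No set test was run. Results of a few items that the rules name are not reported here.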

Additional observations from a re-analysis of the deposited data

Results flagged for a closer look

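The genes below changed on induction in the activator line by an amount that differed from the change in the control line. The values are interaction terms on the log2 scale, activator minus control response, from the same edgeR fit, with adjusted p-values. The control line was induced for 24 h and the activator line for 6 h, so effector and time cannot be told apart. In every gene listed the 3 induced activator libraries lay on one side of the 3 uninduced ones. Most of the genes were taken for the size of their change in the activator line, and the term reuses those libraries. With 0.463% of genes called in the control induction, a called term and groups without overlap were then largely fixed in advance. They support nothing beyond the changes given above. Over all genes 63.7% had a called term and 76.3% had groups without overlap.

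Among the genes that fell, the difference was −2.36 for Irs1 (adjusted p = 5.69e-58), −2.17 for Nr2f2 (1.17e-49), −2.31 for Bahcc1 (2.85e-53), −2.24 for Myc (9.98e-12), −2.14 for Pcdh18 (3.81e-49), −2.23 for Tnfaip3 (5.43e-44), −1.95 for Irf2bp2 (3.81e-49) and −1.99 for Csf1 (2.71e-47). In the control line none of these 8 was called, and their changes lay between −0.10 (Nr2f2) and 0.12 (Tnfaip3). Among the genes that rose, the difference was 1.85 for Egr1 (adjusted p = 7.54e-50), 3.09 for Cdk5r1 (5.21e-34) and 5.30 for Col20a1 (2.68e-36).

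For 3 genes of the stable groups the difference was smaller, 0.62 for Rps20 (adjusted p = 1e-08), 0.62 for Rn7sk (6.95e-06) and 0.76 for mt-Cytb (2.4e-17). Over the 18 fits that give this term, the main one included, the differences ran from −0.06 to 0.73 for Rps20, from −0.07 to 0.72 for Rn7sk and from 0.07 to 0.86 for mt-Cytb, and their adjusted p reached 0.692, 0.74 and 0.318. The 11 other genes kept an adjusted p of at most 2.21e-09 in each of these fits. No group had more than 3 libraries, so single libraries were not tested as outliers.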

How the results depend on the processing

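The 122 genes named with a change were recomputed under 19 alternatives, which gave 2248 of 2313 values with the same direction and call. A call was lost with the direction kept in 30 values, 24 of them under the 3 scalings to reference RNAs. The change had the other sign in 35 further values, which are listed below. Most of those 35 were not called, such as Rps20 with mitochondrial mRNAs held constant (adjusted p = 0.145). Others were called lower, such as Malat1 under each of the 3 scalings to reference RNAs. The other 6 of the 30 were Rmrp 0.22, Malat1 0.03 and Vaultrc5 0.25 with total counts, Vaultrc5 0.35 with total counts without Gm26917 and Gm42418, Vaultrc5 without induced replicate 1, and Rmrp with the replicate block. With total counts the change had the other sign for Terc −0.13. With ribosomal protein genes held constant the change had the other sign for Gapdh −0.051, Rmrp −0.10, Rn7s1 −0.079, Terc −0.45, Vaultrc5 −0.075 and Malat1 −0.30. With the 7SK group held constant the change had the other sign for Rpl37 −0.014, Ftl1 −0.021, Eef1a1 −0.069, Gapdh −0.15, Rmrp −0.20, Rn7s1 −0.18, Terc −0.55, Vaultrc5 −0.17 and Malat1 −0.40. With mitochondrial mRNAs held constant the change had the other sign for Rps20 −0.077, Rpl37 −0.10, Psmb2 −0.067, Psmc4 −0.076, Ndufv2 −0.050, Sod1 −0.063, Ftl1 −0.11, Eef1a1 −0.15, Gapdh −0.24, Rn7sk −0.028, Rpph1 −0.050, Rmrp −0.29, Rn7s1 −0.26, Rn7s2 −0.038, Terc −0.64, Vaultrc5 −0.27, Malat1 −0.48 and Scarna2 −0.088. With total counts without Gm26917 and Gm42418, an alternative chosen after seeing the data, it had the other sign for Terc −0.024.

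With total counts, 3949 genes were higher. Scaling to mitochondrial mRNAs, to ribosomal protein genes and to the 7SK group gave 1405, 1666 and 1452 genes higher and 12966, 11483 and 11971 lower, of which 5812, 4502 and 5191 were at least 2-fold lower, and 6, 24 and 8 stable mRNAs higher. The differences from the control response were then 970, 1139 and 1026 higher and 11857, 10616 and 10136 lower, and with total counts 2680 were higher. With no filter on low counts 3299 genes were at least 2-fold higher, and with at least 5 CPM in 3 libraries, which tests fewer genes, 278 were at least 2-fold higher and 913 at least 2-fold lower. The short-lived genes called lower (57 to 69) and the transcription factors called lower (278 to 425) stayed within 1.5 times the reported counts in every alternative. For the short-lived list the upper limit lies above the 78 genes tested and could not be passed. For the factors, of which 474 were tested in the main fit, it left little room. Only the lower limit could therefore be missed with ease.

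Same-numbered libraries did not deviate together (correlations −0.014, 0.0005 and 0.016), and not every library correlated best with its own number, so the numbers give no pairing. With a replicate block in the activator libraries 6081 genes were higher and 5992 lower, and Rmrp was not called (adjusted p = 0.0593). Leaving out 1 activator library gave 5915 to 6049 genes higher and 5697 to 5863 lower, and changed the call of Vaultrc5 only among the named genes. A lone library was never left in a group. Counts limit the low genes, such as Vaultrc5, Dancr and Tal1. Leaving out list members tested only through the induced libraries was added after seeing the data. It turned the median of integrins and cadherins from 0.07 to −0.10, and those of the markers of macrophages from 0.60 to −0.18 and of skeletal muscle from 4.24 to −0.19.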
